A study of Mus musculus with 2 samples.

Results

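The nuclear genes for the proteins of the mitochondrial ribosome were examined for open chromatin in fetal liver blood progenitors with and without Cre-mediated deletion of Brd9. Members were all protein-coding mouse genes whose symbol is Mrpl or Mrps followed by a digit, which gave 78 of 21887 protein-coding genes in the RefSeq annotation of GRCm38.p6, with 49 genes of the large subunit (Mrpl) and 29 of the small subunit (Mrps). The peaks of both libraries were merged where they overlapped by at least 1 bp, and a region belonged to a gene if it lay within 1 kb of either outer end of the gene. Of 29076 merged regions, 82 lay at members, and 81 of these held a peak in both libraries.

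ATAC-seq, an assay that uses a transposase to cut and tag accessible DNA, was the readout. The knockout library (replicate 2) came from Vav1-iCre Brd9fl/fl cells and the control library (replicate 1) from Brd9fl/fl cells. Both were CD45.2+ and of strain C57BL/6, both carried the floxed Brd9 alleles, and both held 150000 Lineage-, c-Kit+ cells sorted from fetal liver at E14.5. Brd9 encodes a bromodomain protein that belongs to the non-canonical form of the BAF chromatin remodeller. In Vav1-iCre animals Cre is active in cells of the blood system, and the control genotype names no Cre, so an effect of Cre itself and an effect of the loss of Brd9 cannot be told apart. The number of embryos per library is not stated in the labels.

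Mitochondria translate a small set of respiratory chain and ATP synthase proteins from their own genome on a dedicated ribosome. Its ribosomal RNAs are mitochondrial, but all of its proteins are encoded in the nucleus, made in the cytosol and imported. Some have counterparts in the bacterial ribosome and the others are specific to mitochondria. Their promoters often hold sites for ETS-family factors such as GABP, for NRF1 and for YY1, and several of the genes share a promoter with a neighbour on the other strand.

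The sequences shown first are promoter windows of the members on which the results below turn, with 250 bases before and 50 bases after the annotated start, from RefSeq (GRCm38.p6), printed 5′ to 3′ on the strand of the gene. Capitals mark matches on either strand to CCGGAAG (the core of an ETS site, the ETS motif below), to TGCGCA (one arm of the NRF1 palindrome, the NRF1 arm below), to the full NRF1 palindrome, and to ATGGCG (the YY1 motif below). Mrpl36 (chr13:73330759-73331058 on the plus strand), Mrps17 (chr5:129715247-129715546 on the plus strand) and Mrps22 (chr9:98601630-98601929 on the minus strand) had the lowest ratios of knockout to control reads. That ranking represents each gene by its most read gene-end region.
Mrpl36: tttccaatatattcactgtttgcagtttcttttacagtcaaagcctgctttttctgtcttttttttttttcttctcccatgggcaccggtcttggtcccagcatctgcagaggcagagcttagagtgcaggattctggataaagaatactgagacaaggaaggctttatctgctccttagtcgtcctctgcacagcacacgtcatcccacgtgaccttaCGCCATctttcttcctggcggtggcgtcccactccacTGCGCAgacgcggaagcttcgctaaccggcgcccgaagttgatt
Mrps17: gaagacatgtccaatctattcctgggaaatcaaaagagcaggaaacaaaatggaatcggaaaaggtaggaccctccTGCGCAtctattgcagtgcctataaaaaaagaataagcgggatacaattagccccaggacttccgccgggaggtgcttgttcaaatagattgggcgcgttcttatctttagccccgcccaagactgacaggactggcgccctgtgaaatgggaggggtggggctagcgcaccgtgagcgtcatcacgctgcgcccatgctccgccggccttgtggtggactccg
Mrps22: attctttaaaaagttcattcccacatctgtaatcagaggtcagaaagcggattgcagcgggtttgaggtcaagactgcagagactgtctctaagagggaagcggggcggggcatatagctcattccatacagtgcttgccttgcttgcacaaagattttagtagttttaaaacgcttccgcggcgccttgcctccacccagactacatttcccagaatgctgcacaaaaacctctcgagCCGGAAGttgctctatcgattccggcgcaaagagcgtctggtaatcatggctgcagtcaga
Mrps6 (chr16:92058086-92058385 on the plus strand) had the highest ratio of the small subunit when each gene was represented by its most read gene-end region, Mrpl23 (chr7:142532782-142533081 on the plus strand) was among the highest of the large subunit, and Mrps2 (chr2:28467816-28468115 on the plus strand) had the highest ratio of all when regions were taken at annotated starts.
Mrps6: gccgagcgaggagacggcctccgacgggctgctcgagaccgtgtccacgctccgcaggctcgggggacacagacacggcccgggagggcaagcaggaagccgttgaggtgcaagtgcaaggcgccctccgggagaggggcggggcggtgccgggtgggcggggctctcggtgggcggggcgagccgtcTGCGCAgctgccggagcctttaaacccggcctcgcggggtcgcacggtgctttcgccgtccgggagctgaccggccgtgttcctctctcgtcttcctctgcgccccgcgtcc
Mrpl23: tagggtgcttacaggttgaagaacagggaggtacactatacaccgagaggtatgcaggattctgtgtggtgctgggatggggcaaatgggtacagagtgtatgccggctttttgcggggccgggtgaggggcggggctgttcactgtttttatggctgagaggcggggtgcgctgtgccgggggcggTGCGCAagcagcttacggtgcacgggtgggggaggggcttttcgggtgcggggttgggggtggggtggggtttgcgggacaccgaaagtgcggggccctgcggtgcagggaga
Mrps2: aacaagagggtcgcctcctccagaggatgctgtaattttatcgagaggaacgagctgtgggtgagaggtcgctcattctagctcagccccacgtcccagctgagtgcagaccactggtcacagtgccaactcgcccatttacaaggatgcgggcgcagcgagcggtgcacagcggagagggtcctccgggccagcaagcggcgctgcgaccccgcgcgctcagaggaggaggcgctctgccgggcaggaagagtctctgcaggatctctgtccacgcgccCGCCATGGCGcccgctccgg
Mrps11 (chr7:78782881-78783180 on the plus strand) shares its promoter with Mrpl46, and Mrps12 (chr7:28741772-28742071 on the minus strand) shares its promoter with Sars2.
Mrps11: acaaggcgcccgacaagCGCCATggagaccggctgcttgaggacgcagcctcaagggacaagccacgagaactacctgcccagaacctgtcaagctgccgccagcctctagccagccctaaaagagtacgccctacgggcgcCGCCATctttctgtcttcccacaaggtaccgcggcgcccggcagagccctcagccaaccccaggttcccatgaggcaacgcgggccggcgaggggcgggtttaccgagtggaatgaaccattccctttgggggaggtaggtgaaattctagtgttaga
Mrps12: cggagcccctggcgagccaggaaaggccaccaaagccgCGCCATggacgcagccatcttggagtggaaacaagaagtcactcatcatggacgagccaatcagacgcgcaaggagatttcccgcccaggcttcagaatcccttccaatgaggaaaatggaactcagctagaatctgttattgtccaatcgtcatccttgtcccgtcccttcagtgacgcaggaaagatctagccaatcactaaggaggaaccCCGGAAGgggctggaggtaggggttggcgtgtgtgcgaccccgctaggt

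The knockout list held 22348 peaks and the control list 25330. The whole number of reads that covered each peak's summit was recovered from the deposited values and is called summit reads. The knockout library was sequenced less deeply: the lowest background was 0.971 reads in the knockout list and 1.52 in the control list, a ratio of 0.640. A scaled ratio is knockout over control summit reads divided by 0.640, with an exact conditional binomial 95% interval that covers counting error only. With 1 library per genotype there is no replicate check, no p-value is given, and a difference between genotypes and one between individual libraries cannot be told apart. The Brd9 promoter region had 151 knockout and 217 control reads (scaled ratio 1.09, 0.877 to 1.34), and a peak there does not show whether the floxed part was deleted. The libraries also differed in sex-linked regions: Ddx3y (33 reads) and Uty (18 reads) had peaks in the knockout list alone, and Xist had 33 knockout and 86 control reads. The sex of the embryos and the genotype therefore cannot be told apart. Of 10 blood stem and progenitor markers, 6 had a peak in both lists (24 to 65 knockout and 30 to 214 control reads), among them Kit with 65 knockout and 109 control reads. Scaled ratios of these 6 ran from 0.445 at Tal1 (61 knockout and 214 control reads) to 1.98 at Spi1 (38 and 30). Cd34, Gata2 and Ptprc were among those with none at their gene ends. Of the markers of sorted-out lineages, Cd4 had a peak in the control list alone (9 reads), and Cd3e, Cd8a and Itgam were among those with none. Of 5 hepatocyte markers, Apoa1 alone had peaks in both lists (19 knockout and 26 control reads), and Alb, Afp and Ttr had none. Of 4 macrophage markers Mertk had peaks in both lists (21 knockout and 12 control reads), and of 4 endothelial and stromal markers Col1a1 did (19 and 29). The part of other cells in the results below was not tested.

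Nearly all mitochondrial ribosomal protein genes had open chromatin at a gene end in both genotypes. A peak was found in both lists at 74 of 78 genes (94.9%, Clopper-Pearson 95% interval 87.4 to 98.6%), against 47.4% of all protein-coding genes. These were 47 of 49 large subunit genes (95.9%, 86.0 to 99.5%) and 27 of 29 small subunit genes (93.1%, 77.2 to 99.2%). Such intervals cover counting error over genes only. Genes are not replicates, so the intervals do not measure variation between libraries or genotypes. No member had a peak in the knockout list alone (1.79% of coding genes). Mrpl22 had one in the control list alone (3.42%), and Mrps2, Mrpl4 and Mrps23 had one in neither (47.3%). For comparison, 84 of 97 cytosolic ribosomal protein genes (86.6%) and 77 of 88 nuclear genes of the respiratory chain and ATP synthase (87.5%) had a peak in both lists.

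The 4 exceptions had open chromatin inside the gene, more than 1 kb from its outer ends. All 69 members with a start in the RefSeq table had a shared region within 1 kb of it, against 49.4% of coding genes with a listed start. Mrps2, the counterpart of bacterial S2 in the small subunit, had 38 knockout and 22 control reads at chr2:28467636-28468723, which lies 1685 bp from the nearest outer end. Its scaled ratio was 2.70 (1.56 to 4.79), and its knockout count was above its control count even before depth scaling. Mrpl22, the counterpart of a protein that lines the exit tunnel, had 42 knockout and 53 control reads at chr11:58171529-58171968 (1.24, 0.805 to 1.89). The control-only peak of Mrpl22 was at the far end of the gene (chr11:58179161-58180165) and had 15 reads. Mrps23, a small subunit protein specific to mitochondria, had 70 knockout and 111 control reads at chr11:88203793-88204811 (0.985, 0.720 to 1.34), and Mrpl4, a large subunit protein, had 51 and 90 at chr9:21002403-21003623 (0.885, 0.615 to 1.26). Intervals of Mrpl22, Mrps23 and Mrpl4 held 1. With every listed gene taken by the region nearest to its start, 1 of 69 members (Mrps2) reached 1.5, against 4.68% of coding genes, and it also reached 2 (0.926%). At or below 1/1.5 were 4 members, Mrpl36, Mrpl58, Mrps17 and Mrps22 (4.58% of coding genes), and 0 were at or below 1/2 (0.671%). The interval lay above 1 at 7 members (9.33%) and below 1 at 5 (7.61%).

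The 74 genes with a shared gene-end region were served by 73 regions on 17 chromosomes, since Mrpl46 and Mrps11 share one. Their summit reads ran from 17 to 466 in the knockout library and from 26 to 822 in the control library, with medians of 75.5 and 114. Medians over all coding genes with a shared gene-end region were 74 knockout and 120 control reads, so the members lay near the middle of the range. Ranked by the deposited −log10 q within each list, the median member peak was at the percentile 78.4 of all knockout peaks and 77.7 of all control peaks. The regions had a median width of 1004 bp (583 to 2304 bp), against 1038 bp for coding genes. Large subunit genes had medians of 83 knockout and 120 control reads and a width of 1036 bp, and small subunit genes had medians of 67 knockout and 104 control reads and a width of 979 bp. Knockout reads spanned 17 to 466 in the large and 18 to 442 in the small subunit.

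**Figure D1:**
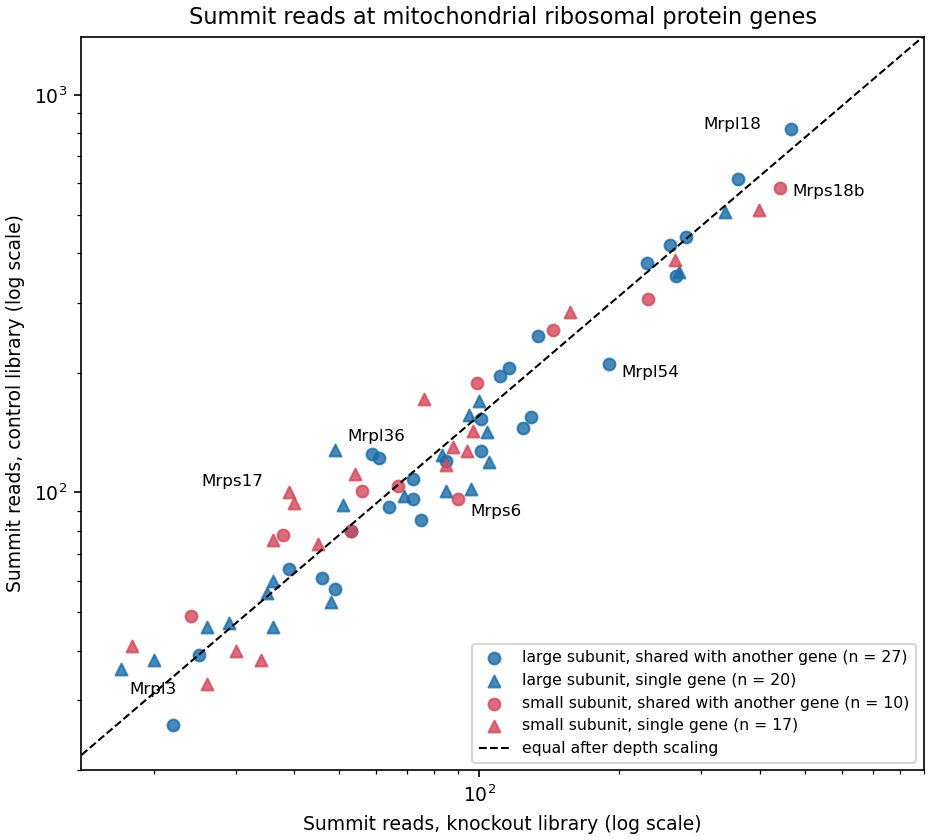
Summit reads of the 74 members with a shared gene-end region in the knockout library (x axis, log scale) and the control library (y axis, log scale), coloured by subunit, with circles for regions shared with another coding gene and triangles for regions at a single gene. Points lie along the dashed line of equal reads after depth scaling, from Mrpl3 at 17 knockout and 36 control reads to Mrpl18 at 466 knockout and 822 control reads; Mrpl36 and Mrps17 lie above the line, and Mrpl54 and Mrps6 below it.

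The order of the members was much the same in both libraries: over the 73 regions the Pearson correlation of log2 summit reads was 0.963, a description over regions that share the same pair of libraries. The 5 most open regions belonged to members of both subunits. Mrpl18, the counterpart of the bacterial protein that binds the small RNA of the central protuberance, had 466 knockout and 822 control reads. Mrps18b had 442 and 584, Mrpl41 had 360 and 615, Mrps28 had 399 and 513, and Mrpl17 had 337 and 507 (knockout before control in each). At the low end, Mrpl53 had 22 knockout and 26 control reads, Mrpl3 had 17 and 36, Mrpl42 had 20 and 38, Mrps31 had 18 and 41, and Mrps18a had 26 and 33. The intervals of the scaled ratio of these 5 low regions all held 1, and each also held 1.5 or 1/1.5, so that a difference of that size was not detectable at this depth.

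Peaks sat on the annotated starts. The start lay inside the region at 65 of 66 genes with a listed start and a shared gene-end region. Relative to the start, the median summit position was −3 bp in the knockout list and −29 bp in the control list. The summits of both libraries were a median of 19 bp apart, and more than 200 bp apart at Mrpl53 (315 bp) and Mrpl43. The control peak was the wider one at 56 of 74 genes, with medians of 864.5 bp in the knockout list and 953.5 bp in the control list, and the control library was also the deeper one. Shares over all coding genes, for wider control peaks and for starts inside the region, are not given here. The gene whose start lay outside its region was Mrpl58, whose product releases peptides from stalled mitochondrial ribosomes. Its representing region, the one with the most reads, lay at the far end of the gene beside tRNA genes (chr11:115412416-115414042) and had 268 knockout and 358 control reads (1.17, 0.994 to 1.37). The region at its start (chr11:115403473-115404393) had 27 knockout and 65 control reads (0.649, 0.398 to 1.03).

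Scaled ratios of members centred on 1. Their median log2 scaled ratio was 0.05 (quartiles −0.19 and 0.23), against 0.01 for all coding genes with a shared gene-end region. The ratio was above 1 at 40 genes and below 1 at 34. The SD over members was 0.32 on the log2 scale, against 0.36 over coding genes, while counting error alone would give 0.24. The median log2 scaled ratio was −0.01 for the cytosolic ribosomal protein genes and −0.05 for the respiratory chain and ATP synthase genes.

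No member reached a scaled ratio of 1.5, against 4.94% of coding genes. Mrpl36, Mrps17 and Mrps22 (4.05% of members) were at or below 1/1.5 (0.667), against 4.59% of coding genes. A 2-fold higher or lower ratio was found at 0 members (0.964% and 0.646% of coding genes). The 95% interval lay above 1 at 9 members (12.2%), against 9.32% of coding genes, and below 1 at 5 members (6.76%), against 7.59%. All of these shares were near the background. Members carried middling read numbers, and when only coding genes between the quartiles of the members' summed reads were used, 36 members were set against 3660 genes. Of these members, 0 reached 1.5 (2.35% of the genes), 0 were at or below 1/2 (0.301%), 3 were at or below 1/1.5 (8.33% against 4.73%), 5 had an interval above 1 (13.9% against 5.52%) and 4 below 1 (11.1% against 9.18%). Each of these counts is of 5 genes or fewer. The median log2 scaled ratio was 0.06 over these 36 members and −0.05 over the 3660 genes, and the difference was not tested.

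**Figure D2:**
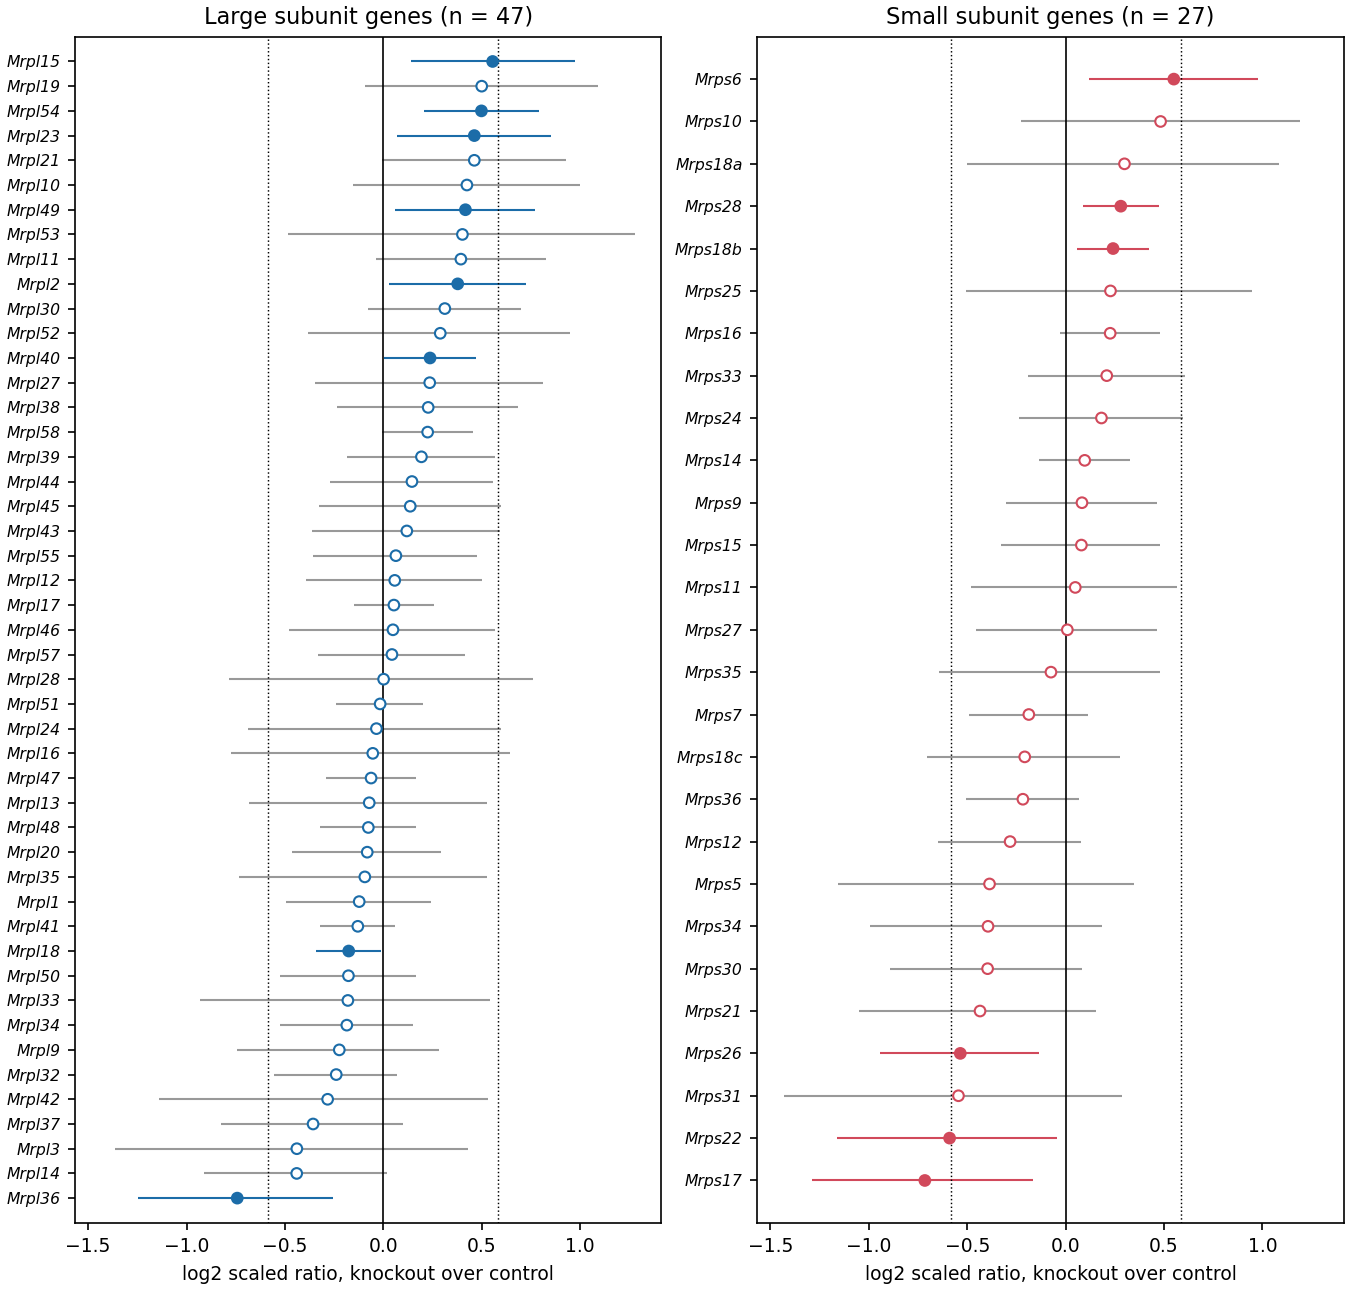
Scaled ratio of knockout over control summit reads (x axis, log2) for each large subunit gene (left, n = 47) and small subunit gene (right, n = 27) with a shared gene-end region, sorted by ratio. Lines are exact 95% intervals for counting error, filled points mark the 14 genes whose interval excludes 1, and dotted lines mark 1.5-fold; no point passes the upper dotted line, and Mrpl36, Mrps17 and Mrps22 pass the lower one.

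Among genes with less open chromatin in the knockout library, Mrpl36 came first. It encodes the counterpart of a small zinc-binding protein of the bacterial large subunit. Its start region (chr13:73330899-73331628) had 49 knockout and 128 control reads, a scaled ratio of 0.598 (0.421 to 0.837). The region at its other end (chr13:73328042-73328647), shared with the complex I gene Ndufs6, had 57 knockout and 112 control reads (0.795, 0.567 to 1.10). Mrps17, an RNA-binding protein of the small subunit, had 39 knockout and 100 control reads at chr5:129715333-129716020 (0.609, 0.409 to 0.890). Mrps22, a small subunit protein specific to mitochondria, had 40 knockout and 94 control reads at chr9:98601140-98601970 (0.665, 0.447 to 0.972). Mrps26, also specific to mitochondria, had 76 knockout and 172 control reads (0.690, 0.520 to 0.909). All 4 regions served a single coding gene at the start. By the authors' deposited fold over local background, which is not depth scaled, the log2 ratio was −0.38 for Mrpl36, −0.45 for Mrps17 and −0.17 for Mrps22, so that no member was at or below 1/1.5 on that measure. With a gene-end window of 0.5 kb, which takes Mrpl36 by its other end, the gene had a log2 ratio of −0.33. The interval of the strong Mrpl18 region lay just below 1 (0.885, 0.789 to 0.993), and its deposited folds gave a log2 ratio of 0.03, the other direction.

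Other members with low ratios had intervals that held 1. Mrps31 had 18 knockout and 41 control reads (0.686, 0.371 to 1.22), and Mrps21 had 36 knockout and 76 control reads at its start (0.740, 0.483 to 1.11). The region near the far end of Mrps21 (chr3:95861370-95862300) went the other way, with 46 knockout and 45 control reads (1.60, 1.04 to 2.46). In the large subunit, Mrpl14 had 59 knockout and 125 control reads (0.737), Mrpl3 had 17 and 36 (0.737), Mrpl37 had 61 and 122 (0.781), and Mrpl42 had 20 and 38 (0.822).

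By their representing gene-end regions, the genes with more open chromatin in the knockout library differed by less than 1.5-fold. Mrpl15, a large subunit protein with a bacterial counterpart, had 96 knockout and 102 control reads (1.47, 1.10 to 1.96). Mrps6, a small subunit protein, had 90 knockout and 96 control reads (1.46, 1.09 to 1.97) in a region that also holds the start of Slc5a3, an inositol transporter gene on the same strand whose start is 14 bp away. Mrpl54 had 190 knockout and 210 control reads (1.41, 1.16 to 1.73). In all 3 the control library had slightly more reads, so their ratio above 1 comes from the depth scaling. The same holds for every other member whose representing region had a ratio above 1. Mrpl23, which lies at the exit of the peptide tunnel in bacteria, had 105 knockout and 119 control reads (1.38, 1.05 to 1.81). Mrpl49 had 124 knockout and 145 control reads (1.34, 1.04 to 1.71) in a region shared with Fau. Mrpl2, the counterpart of a protein close to the peptidyl transferase centre, had 129 knockout and 155 control reads (1.30, 1.02 to 1.65) at the start it shares with Klc4. At its other end, a region shared with the ubiquitin ligase gene Cul7 (chr17:46650243-46650969) had 46 knockout and 133 control reads (0.540, 0.378 to 0.761), so the 2 ends of Mrpl2 differed in opposite directions.

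Mrps28, Mrps18b and Mrpl40 had more reads, smaller differences and narrower intervals. Mrps28 had 399 knockout and 513 control reads (1.21, 1.06 to 1.39), Mrps18b had 442 and 584 (1.18, 1.04 to 1.34), and Mrpl40 had 265 and 351 (1.18, from just above 1 to 1.39). Other high ratios had intervals that held 1: Mrpl19 had 48 knockout and 53 control reads (1.41), Mrps10 had 34 and 38 (1.40), and Mrpl21 had 75 and 85 (1.38). The 3 paralogues of bacterial S18 had ratios on both sides of 1. Mrps18a had 26 knockout and 33 control reads (1.23, 0.707 to 2.12) and Mrps18c had 56 and 101 (0.866, 0.613 to 1.21), and these intervals overlapped that of Mrps18b.

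Both subunits had medians near 0 on the log2 scale, and the difference between them was not tested. The median log2 scaled ratio was 0.05 over 47 large subunit genes (SD 0.29, 26 above 1 and 21 below) and 0.01 over 27 small subunit genes (SD 0.35, 14 above and 13 below). An interval above 1 was found at 6 large and 3 small subunit genes, and one below 1 at 2 large and 3 small subunit genes. In structures of the mammalian ribosome the products of Mrps30 and Mrps18a sit in the large subunit, and the product of Mrps36 is a component of the α-ketoglutarate dehydrogenase complex. With these genes placed accordingly the medians were 0.05 for the large and 0.03 for the small subunit.

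Grouping by origin, chosen after values had been seen, gave a median of 0.03 over 44 genes with a bacterial counterpart and 0.05 over 30 genes specific to mitochondria. Split by subunit as well, the 10 small subunit genes specific to mitochondria had the lowest median, −0.31, with 7 of 10 ratios below 1. The 20 large subunit genes specific to mitochondria had a median of 0.13 with 14 above 1. As a background for these counts, 5032 of 10376 coding genes had a ratio below 1 and 5344 had one above 1. The medians were −0.05 over 27 large and 0.08 over 17 small subunit genes with a bacterial counterpart. With Mrps30 placed in the large subunit and Mrps36 left out, the 8 small subunit genes specific to mitochondria had a median of −0.23, with 5 of 8 ratios below 1. Of these genes, Mrps22 and Mrps26 had an interval that excluded 1, and the difference between these groups was not tested.

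Sharing of a region with another coding gene was common. Of the 74 genes, 37 had their region within 1 kb of an end of another coding gene, against 30.8% of coding genes with a shared gene-end region. This held for 27 of 47 large (57.4%) and 10 of 27 small subunit genes (37.0%). Either end of the other gene counts, so such a region need not be a shared promoter. A head-to-head partner, which can be seen only where strands are listed, was found at 25 members (33.8%), against 13.0% of coding genes. These were 18 large (38.3%) and 7 small subunit genes (25.9%). The shares are of all genes with a shared gene-end region, also those with no listed strand. Sharing was also seen at 39 of 77 respiratory chain and ATP synthase genes (50.6%) and at 23 of 84 cytosolic ribosomal protein genes (27.4%).

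Several partners also act in mitochondria. Mrpl46 and Mrps11, whose proteins sit in different subunits, start 42 bp apart on opposite strands, and their common region (chr7:78782638-78783540) had 53 knockout and 80 control reads (1.03, 0.717 to 1.48). Mrps12, which belongs to the decoding centre, starts 147 bp from Sars2, the mitochondrial seryl-tRNA synthetase, and their region had 99 knockout and 188 control reads (0.822, 0.638 to 1.05). Mrpl47 starts 308 bp from the complex I gene Ndufb5 (257 knockout and 419 control reads; 0.958, 0.817 to 1.12), and Mrpl43 starts 116 bp from Twnk, the mitochondrial DNA helicase (64 knockout and 92 control reads; 1.09, 0.777 to 1.51). All 4 intervals held 1. Other partners act elsewhere in the cell: Mrpl18 pairs with Tcp1, a chaperonin subunit, over 238 bp, Mrpl32 with the proteasome gene Psma2 over 205 bp, Mrpl40 with the histone chaperone gene Hira over 113 bp, and Mrpl51 with the condensin gene Ncapd2 over 614 bp. Mrpl51 had 278 knockout and 439 control reads (0.989, 0.848 to 1.15), and Mrpl41, paired with Pnpla7, had 360 and 615 (0.914, 0.800 to 1.04).

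Regions shared with another coding gene had more reads than those at a single gene, with medians of 90 knockout and 125 control reads over 37 genes, against 54 and 101 over the other 37. The same order was seen over all coding genes, with medians of 101 knockout and 160 control reads in 3198 shared cases and 64 and 103 in 7178 single cases. The median log2 scaled ratio was 0.04 in shared and 0.05 in single regions, with SDs of 0.28 and 0.35. All 3 members at or below 1/1.5 were at single regions. Over coding genes, 119 of 3198 shared and 357 of 7178 single cases were that low.

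**Figure D3:**
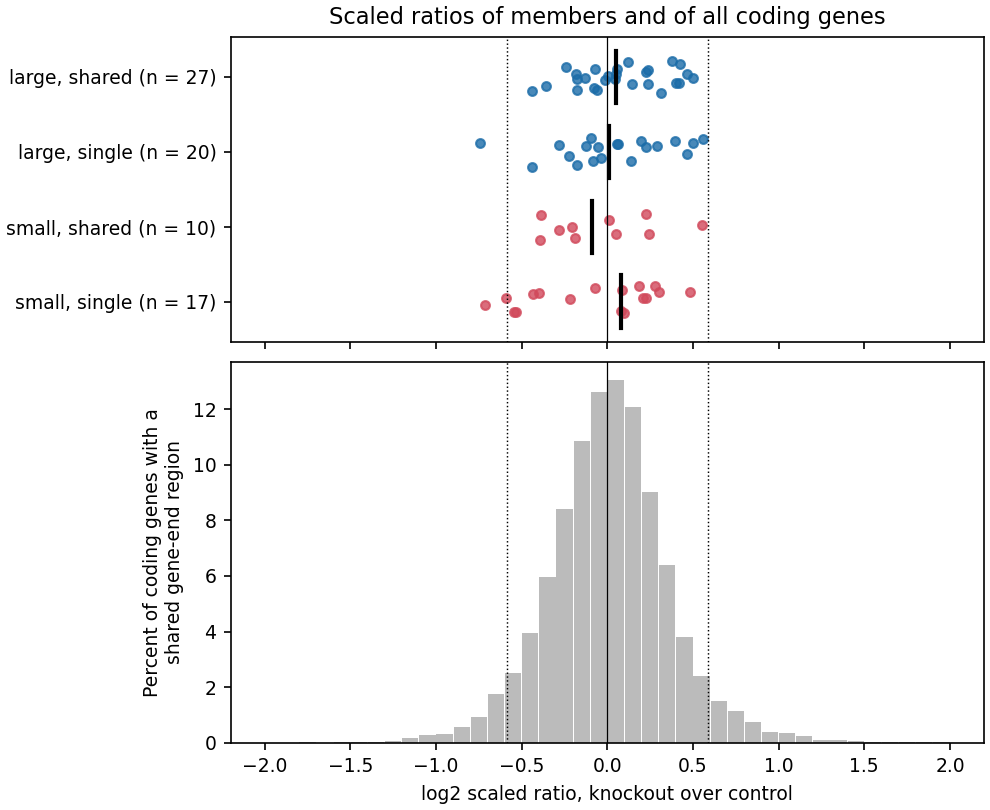
Upper panel, log2 scaled ratio of knockout over control summit reads for each member, split by subunit and by whether its region is shared with another coding gene, with black bars at the medians (vertical scatter is arbitrary). Lower panel, percent of the 10376 coding genes with a shared gene-end region in each bin of the same ratio. Dotted lines mark 1.5-fold, and all members but Mrpl36, Mrps17 and Mrps22 lie between them.

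Member promoters held the ETS, NRF1 arm and YY1 motifs more often than other promoters did. Of the 69 members with a listed promoter, 25 (36.2%) held the ETS motif, against 20.5% of the 8639 coding genes with a shared region at the start and 11.9% of all 17492 coding promoters in the table. The NRF1 arm was found in 21 (30.4%), against 16.0% and 10.1%, and the YY1 motif in 19 (27.5%), against 17.5% and 11.2%. The full NRF1 palindrome was found in 3 (4.35%), against 2.42% and 1.32%, and 2 of these also held the arm, with which it can overlap. At least 1 of the ETS, NRF1 arm and YY1 motifs was found in 47 of 69 members. The same share over coding promoters was not computed, so this count has no background. All motifs were searched on both strands in windows of 300 bases, and a match is a description of letters, not of binding.

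Most of these matches lay within 100 bp of the start. Of 30 ETS matches in members, 27 did, with a median position of −13, and of 21 YY1 matches 18 did, with a median position of 20. The NRF1 arm was more spread, with 18 of 27 matches that near and a median position of −59. Positions of matches in other coding promoters were not computed, so these shares have no background. A large part of each window lies within 100 bp of the start. Whether nearness to the start is particular to members was not tested. In the sequences printed above, the ETS motif begins at position −11 in Mrps22 and 1 in Mrps12, and the NRF1 arm at 6 in Mrpl36, −62 in Mrps6, −63 in Mrpl23 and −174 in Mrps17. The YY1 motif begins at −31 in Mrpl36, −212 in Mrps12, and −233 and −108 in Mrps11. Mrps2 holds the YY1 motif on both strands, overlapping, at 30 and 34.

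Other motifs were no more frequent in members than in coding genes with a shared region at the start. The Sp motif, GGGCGG, was found in 34 members (49.3%), against 68.7%, and in 17 of 43 large (39.5%) and 17 of 26 small subunit promoters (65.4%). The NF-Y motif, CCAAT, was found in 39.1% of members, against 40.3%, and Mrps12 holds 4 of them. The E-box CACGTG was found in 7.25%, against 10.96%. The TATA box letters TATAAA were found in 5.80%, against 6.25%. The median GC content was 58.3% in members, against 61.7% in coding genes with a shared region at the start and 56.3% in all, with medians of 21, 22 and 13 CpG.

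Ratios of members with and without a motif are given as a description, and no difference was tested. The median log2 scaled ratio was 0.04 over 23 members with the ETS motif and 0.00 over 43 without it, and 0.15 over 19 with the NRF1 arm and −0.05 over 47 without it. It was −0.09 over 17 with the YY1 motif and 0.05 over 49 without it, and −0.18 over 27 with the NF-Y motif and 0.05 over 39 without it. Mrpl36 and Mrps17, at the low end of the ratios, and Mrps6 and Mrpl23, at the high end, all hold the NRF1 arm.

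**Figure D4:**
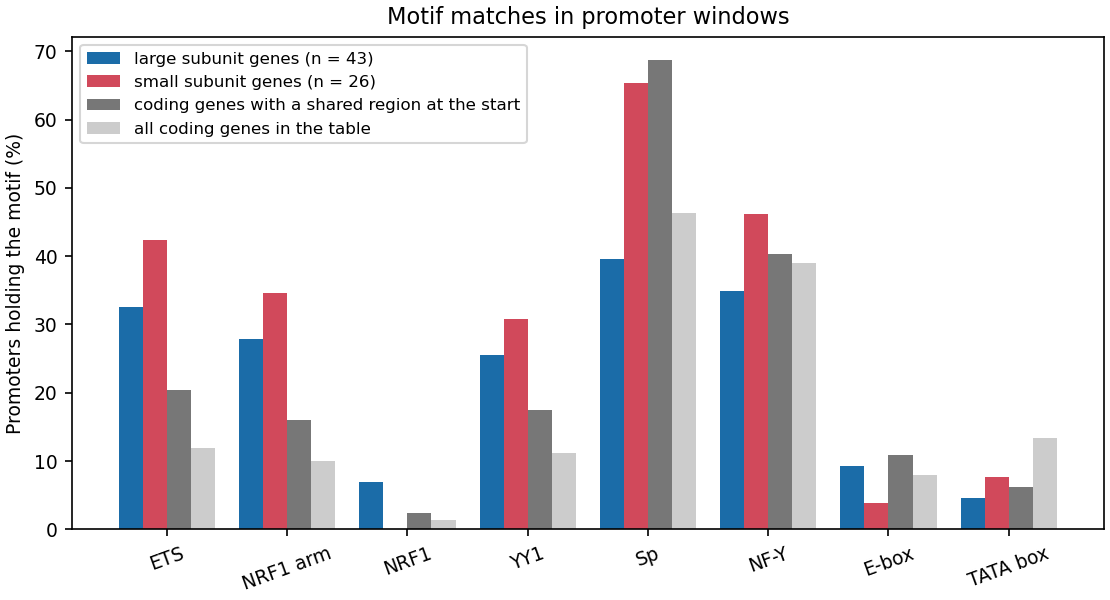
Percent of promoter windows (250 bases before to 50 after the start, y axis) that hold each motif on either strand, for large subunit genes, small subunit genes, coding genes with a shared region at the start and all coding genes in the table. ETS, NRF1 arm and YY1 motifs are more frequent in both subunits than in either background, while the Sp motif is less frequent in large subunit genes than in coding genes with a shared region at the start.

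Other genes of mitochondrial translation were open in both genotypes at a like share. From a list of 55 genes, 53 (96.4%) had a peak in both lists, against 47.4% of all coding genes, and Aars2 (an alanyl-tRNA synthetase) and Rcc1l (an assembly factor) had none at their gene ends. Their median log2 scaled ratio was −0.05 over 53 genes. Of the 53 genes, 1 was at or above 1.5 (4.94% of coding genes), 3 were at or below 1/1.5 (4.59%), 3 had an interval above 1 (9.32%) and 2 had one below 1 (7.59%). The gene at or above 1.5 was Mtif3, an initiation factor, with 21 knockout and 20 control reads (1.64, 0.846 to 3.19). Mtrf1 and Tsfm, which act in release and elongation, and Malsu1, an assembly factor, were at or below 1/1.5. The interval lay below 1 for Malsu1 (47 knockout and 122 control reads; 0.602, 0.420 to 0.849) and for Dhx30, an RNA helicase (94 and 192; 0.765, 0.591 to 0.984).

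The interval lay above 1 for Lars2, Tfb1m and Tfb2m. The most read gene-end region of Lars2, the leucyl-tRNA synthetase, had 1304 knockout and 1573 control reads (1.29, 1.20 to 1.39) in only 403 bp. Whether it lies at the start or at the far end of Lars2 is not given here. Tfb1m, which methylates the small ribosomal RNA, had 472 knockout and 619 control reads (1.19, 1.05 to 1.34), and Tfb2m, a mitochondrial transcription factor, had 288 and 384 (1.17, from just above 1 to 1.37). The median log2 scaled ratio was −0.24 over 9 translation factors, −0.05 over 19 genes of RNA maturation and assembly, −0.03 over 16 tRNA synthetases, 0.00 over 4 transcription genes and 0.09 over 5 further ribosomal proteins, namely Dap3, Ptcd3, Aurkaip1, Chchd1 and Gadd45gip1.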

How the data were processed

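ATAC-seq peaks of 2 mouse libraries, 1 per genotype, were analysed. Build mm10 and the tools MACS2 2.2.7.1, Bowtie2 2.4.4, Trimmomatic 0.39, deepTools 3.5.1 and Picard 2.26.2 are listed per the submitters' processing notes; their roles and settings, including any transposase shift and the treatment of duplicates, are not given in the sources used here. Each deposited list belongs to 1 sample. In 99.9% of rows the deposited score equals the −log10 q-value times 10 with its decimals cut, and it was not used. The deposited fold is the ratio of summit pileup to local background, each with 1 added. For each peak the authors' deposited −log10 p-value and their −log10 q-value were taken as given. The q-value was used to filter and to rank peaks, not in the ratios.

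The whole-number pileup at each summit (a read count) and its background were solved from the deposited fold and −log10 p, with a relative misfit of at most 7.3e-06 at every peak. The method was tested on simulated data. Calculations used SciPy 1.17.1, pandas 2.3.3 and NumPy 2.4.6 under Python 3.11.15, with figures from matplotlib 3.10.9. Gene ends came from RefSeq GRCm38.p6, which has the mm10 coordinates, and starts from its promoter table, which lists 69 of 78 members. A gene with several shared regions was represented by the one with the most reads. The background for ratios was the 10376 coding genes with a shared gene-end region.

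The members and lists were chosen with earlier results of these data known. Named members were those with an interval that excluded 1, the 5 highest and 5 lowest ratios per subunit, those not in both lists, the 5 with most and 5 with fewest reads, the 5 strongest shared regions and the Mrps18 paralogues; of the translation list, those with an interval that excluded 1 or in neither list. Other genes were named after their values were seen, as were regions taken at starts beyond 1 kb of the outer ends, the groupings by structure and origin and the background of like depth. Some lineage marker results are not reported here.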

Additional observations from a re-analysis of the deposited data

How the results depend on the processing

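No paired analysis was possible because each genotype has 1 library and their replicate numbers differ, and no library could be left out for the same reason. Alternatives were other gene-end windows, peak filters, overlaps, scalings, measures, fold rules, partner types and regions nearest to the start. The median log2 scaled ratio over all members ranged from 0.00 to 0.05, that of the large subunit from 0.00 to 0.05 and that of the small subunit from −0.02 to 0.03. A window of 0.5 kb left 7 members with a peak in neither list, and Mrpl36 was no longer at or below 1/1.5 (log2 ratio −0.33). A window of 2.5 kb left 1 in neither and 0 in the control list alone, gave a median of −0.064 at single regions, and brought 2 members, Mrps2 and Mrpl53, to 1.5 or more, with 0 translation genes. With equal numbers of the strongest peaks (11174 per list), 4 members had a peak in the knockout list alone, 3 in the control list alone and 8 in neither, and 0 translation genes reached 1.5. By the deposited fold, 0 members and 1 translation gene were at or below 1/1.5, 0 translation genes reached 1.5, and Mrpl18 had a log2 ratio of 0.025. By regions nearest to annotated starts, 0 members were in the control list alone and 0 in neither, 1 member (Mrps2) and 0 translation genes reached 1.5. A fold of 2 left 0 members below, and the interval rule gave 9 above and 5 below. The cause of these shifts was not tested. The other 236 recomputed values stayed within 1.5 times or 0.1 on the log2 scale. With scaling by the median over shared regions, Mrps22 was no longer at or below 1/1.5. Depth limits regions with few reads, where a 1.5-fold ratio lies within the interval.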

Other observations

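Within 10 kb of members, 75 further regions lay away from their gene ends. Of these, 49 were shared, 7 (9.33%) were in the knockout list alone and 19 (25.3%) in the control list alone. Around all coding genes the shares were 17.2% in the knockout list alone and 31.9% in the control list alone, and the deeper control list held more peaks in all. The control-only region with the most reads lay inside Ppp1r10, 2285 bp from Mrps18b (chr17:35918725-35919976), with 132 control reads. By the deposited −log10 q it was not the strongest (14.8, against 20.5 for a region beside Mrps5). At the knockout depth 84.5 reads would correspond to it, but knockout reads without a called peak are not known. A region inside Hira, 1084 bp from Mrpl40 (chr16:18877721-18878173), had 66 control reads. Regions beside Mrps5, inside Zfp661, and beside Mrpl53, inside Mogs, had 45 and 44 control reads. The promoter regions of Mrps18b and Mrpl40 themselves had scaled ratios above 1. Knockout-only regions had at most 13 reads, at a site inside Mrps28 (chr3:8857262-8857824).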
